A study of Mus musculus with 24 samples.

Results

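The carbonic anhydrase genes Car2, Car3, Car4, Car5b, Car6, Car8, Car12, Car13 and Car14 were followed in differentiating white and brown fat cells of the mouse that had received epigallocatechin gallate (EGCG), the main catechin of green tea. They are 9 of the 37310 genes in the expression tables. The family was chosen by the values of 1 member, since Car3 was among the genes lowered most by EGCG in these libraries, and the question was which of its relatives followed. The values of Car3, controls included, are therefore given as a description without a test, and only the other 8 members were counted.

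Stromal vascular fraction (SVF) cells, the mixed cells of fat that hold the adipocyte precursors, came from the inguinal white adipose tissue (WAT) or the interscapular brown adipose tissue (BAT) of C57BL/6 mice aged 6 weeks. The cells received insulin, dexamethasone and 3-isobutyl-methylxanthine for 4 days, after which RNA of the day 4 groups was taken, and those kept to day 8 then received insulin and T3 for another 4 days. EGCG or its solvent DMSO was added to the medium, at a dose the labels do not give. The 8 groups (WAT or BAT, day 4 or day 8, control or EGCG) had 3 libraries each, and the cells were not sorted. The labels do not say whether the replicates were separate isolations of cells, so the p-values measure the spread between libraries, which may be technical. Values are FPKM, that is, reads scaled to gene length and to the reads on genes in the library. The 16 libraries of replicates 1 and 2 are in 1 table and were tested together, and the 8 libraries of replicate 3 are in a table made separately and give values only.

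Carbonic anhydrases convert carbon dioxide and water into bicarbonate and a proton, and back. The members work in different places. Car2, Car3 and Car13 are cytosolic, with Car2 a fast enzyme and Car3 a slow one that is abundant in fat, skeletal muscle and liver. Car5b is mitochondrial, Car6 is secreted, and Car4, Car12 and Car14 face the outside of the cell. Car8 is a carbonic anhydrase-related protein without the catalytic activity. In fat cells, bicarbonate is a substrate of pyruvate carboxylase and of acetyl-CoA carboxylase, which both stand on the road from glucose to fatty acids.

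In the GENCODE annotation of mouse build NCBIM37 (mm9), the 3 cytosolic members lie in a cluster on the forward strand of chromosome 3. Car13 (ENSMUSG00000027555.8) spans 14641727 to 14663002, Car3 (ENSMUSG00000027559.4) spans 14863538 to 14872351, and Car2 (ENSMUSG00000027562.7) spans 14886426 to 14900769, starting 14075 bp after the end of Car3. Car1, the red cell enzyme, lies between Car13 and Car3 on the reverse strand and is not a member. Car14 (ENSMUSG00000038526.8) is on the same chromosome but far away, at 95701691 to 95708614 on the reverse strand. Car5b (ENSMUSG00000031373.4) is on the reverse strand of chromosome X at 160414754 to 160465929. Car6 (ENSMUSG00000028972.5) and Car8 (ENSMUSG00000041261.8) are on the reverse strand of chromosome 4, at 149561124 to 149575441 and at 8070514 to 8166188. Car4 (ENSMUSG00000000805.11) and Car12 (ENSMUSG00000032373.8) are on the forward strand, at 84771288 to 84779546 of chromosome 11 and at 66561493 to 66614652 of chromosome 9. All are protein-coding genes, and each value is the level of a whole gene.

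The promoters of Car5b, the relative with the largest fall in 3 of the 4 EGCG comparisons, and of Car12, a low member that was higher with EGCG in brown cells on day 8, are shown here, each as the 250 bases before the transcription start. They are RefSeq sequences of build GRCm38.p6, written 5′ to 3′ on the strand of the gene. RefSeq windows were matched for 5 of the 9 members, Car4, Car5b, Car6, Car12 and Car14, and not for Car2, Car3, Car8 and Car13. Capitals mark matches to GGGCGG or CCAAT on either strand. The Car5b window is chrX:164028011-164028260 on the reverse strand and the Car12 window is chr9:66713436-66713685 on the forward strand.
Car5b: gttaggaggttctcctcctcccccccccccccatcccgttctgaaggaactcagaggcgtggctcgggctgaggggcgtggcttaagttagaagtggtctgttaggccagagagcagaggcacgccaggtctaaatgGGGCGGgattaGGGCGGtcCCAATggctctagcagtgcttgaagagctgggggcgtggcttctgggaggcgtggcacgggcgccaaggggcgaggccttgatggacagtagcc
Car12: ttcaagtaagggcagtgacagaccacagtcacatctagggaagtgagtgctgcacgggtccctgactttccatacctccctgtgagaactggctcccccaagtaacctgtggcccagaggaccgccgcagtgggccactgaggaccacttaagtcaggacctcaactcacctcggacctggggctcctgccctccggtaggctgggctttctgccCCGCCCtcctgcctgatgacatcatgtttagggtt
In Car5b, GGGCGG begins 113 and 102 bases before the start and CCAAT 94 bases before it, with no overlap. Car12 holds GGGCGG once, on the other strand, 35 bases before the start. Of the 32817 RefSeq windows of the same length, 32.7% hold GGGCGG and 33.8% hold CCAAT on either strand. TATAAA, in 12.4% of all windows, and AGGTCA, in 14.0%, are in none of the 5 members' windows. Car6 holds CCAAT on the other strand and GGGCGG, and Car4 and Car14 hold none of the 4 motifs. A match describes the letters and does not show that a factor binds.

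Depth, as reads on genes, ran from 39452696 to 52893848 in the first table and from 16392420 to 41675643 in the table of replicate 3. A total of 3 reads, taken as the limit that a count of 0 allows, was worth 0.0284 to 0.0380 FPKM for a gene of 2 kb in the first table and up to 0.0915 FPKM in the second, and it covers counting error only. In the EGCG library of replicate 3 from WAT on day 8, 5 genes took 61.0% of the reads, against 3.94% to 10.5% in the first table, and leaving them out would multiply its other values by 2.56. The 17 mature adipocyte markers, Lep included, were above the limit in every control group, with a summed level of 4153 to 8165 FPKM in WAT and 7277 to 13398 FPKM in BAT controls.

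Of the 9 members, 5 reached 1 FPKM in at least 2 of the 16 libraries of replicates 1 and 2 and were tested among 14095 genes (limma on log2(FPKM + 1), called at an adjusted p under 0.05). Car3, Car5b and Car13 did so in all 16, Car2 in 11 and Car6 in 4. The 4 libraries that let Car6 pass were all from WAT, 3 of them from controls, so a level higher in WAT is built into its being tested, and its control values are given without a test. Car4, Car8, Car12 and Car14 stayed under the filter. EGCG moved very many genes in these cells, so a call on its own is common: 53.7% of the tested genes were called in WAT on day 4, 63.6% in WAT on day 8, 48.5% in BAT on day 4 and 72.6% in BAT on day 8. Those called lower were 19.3%, 18.9%, 20.6% and 26.1% of the tested genes, and those called higher were 34.4%, 44.7%, 27.9% and 46.5%. Among the calls, 64.1%, 70.3%, 57.6% and 64.0% were higher, a split that moved to 44.7%, 51.2%, 51.3% and 51.8% when libraries were scaled to their median ratio and to 52.5%, 61.0%, 51.1% and 59.3% with quantile normalization.

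Car3 was the dominant carbonic anhydrase transcript of the control cells and was low in every EGCG library. On day 4 in WAT it stood at 1690.0, 1437 and 1657 FPKM in control replicates 1, 2 and 3, against 35.1, 41.3 and 25.2 FPKM with EGCG. On day 8 in WAT the controls held 1197, 1358 and 993 FPKM and the EGCG libraries 3.48, 3.38 and 1.08 FPKM, the last from the library with 5 dominant genes (2.78 FPKM without them). No EGCG library came near a control, and the WAT cells of day 8 held the lowest values of all.

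In BAT on day 4, Car3 was at 1251, 1532 and 1579.6 FPKM in the controls and at 61.2, 90.8 and 79.8 FPKM with EGCG. On day 8 these were 1895, 1904 and 1649.8 FPKM against 74.5, 64.5 and 53.9 FPKM. Every BAT library with EGCG held more Car3 than every WAT library with EGCG of the same day. Ordered by FPKM among all 37310 genes, Car3 was between the 15th and the 36th gene in the controls, but between the 611th and the 2562nd in BAT and in day 4 WAT cells with EGCG and between the 9481st and the 9571st in day 8 WAT cells with EGCG. The differences between EGCG and control on the log2(FPKM + 1) scale were -5.32 and -8.17 in WAT and -4.20 and -4.76 in BAT on days 4 and 8, and they chose the family.

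Car5b, the mitochondrial enzyme, followed Car3 in every comparison. In WAT on day 4 it was at 26.3, 24.1 and 26.4 FPKM in the controls and at 1.85, 1.80 and 1.58 FPKM with EGCG (log2 change -3.21 ± 0.103 SE, limma adjusted p = 1.06e-09). By day 8 in WAT it was at 45.96, 59.1 and 51.2 FPKM in the controls and at 1.70, 1.53 and 0.656 FPKM with EGCG (-4.35 ± 0.103, adjusted p = 2.95e-11), the last being 1.68 FPKM without the 5 dominant genes. All 6 control libraries lay far above all 6 EGCG libraries, and the EGCG libraries of both days lay between 0.656 and 1.85 FPKM.

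In BAT on day 4, Car5b was at 52.8, 61.8 and 63.3 FPKM in the controls and at 11.7, 11.7 and 10.0 FPKM with EGCG (-2.19 ± 0.103, limma adjusted p = 1.95e-08). On day 8 it was at 112, 106 and 97.5 FPKM in the controls and at 4.16, 4.40 and 4.32 FPKM with EGCG (-4.38 ± 0.103, adjusted p = 1.78e-11). The brown control cells of day 8 held the highest Car5b level of the series and the EGCG libraries were again below all controls. Among the changes of all 14095 tested genes, that of Car5b lay at the 0.170th percentile in WAT and the 0.298th in BAT on day 4, and at the 0.284th and the 0.411th on day 8.

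The fall of Car5b depended on depot and day. On day 4 it was smaller in BAT than in WAT (difference of the log2 changes 1.02 ± 0.145 SE, limma adjusted p = 0.000409, where 28.1% of the tested genes were called). On day 8 the difference between depots was -0.03 (95% interval -0.35 to 0.29, adjusted p = 0.890), in a comparison that called 39.2% of the genes, and its sign turned with a pseudocount of 0.1 (0.30) and with quantile normalization (0.08). The fall was larger on day 8 than on day 4 in WAT (-1.13 ± 0.145, adjusted p = 7.74e-05, 49.4% of the genes called) and in BAT (-2.19 ± 0.145, adjusted p = 3.80e-07, 55.4% called). For Car3 the corresponding differences, untested, were 1.12 and 3.41 between depots on days 4 and 8, and -2.85 in WAT and -0.56 in BAT between days.

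**Figure D1:**
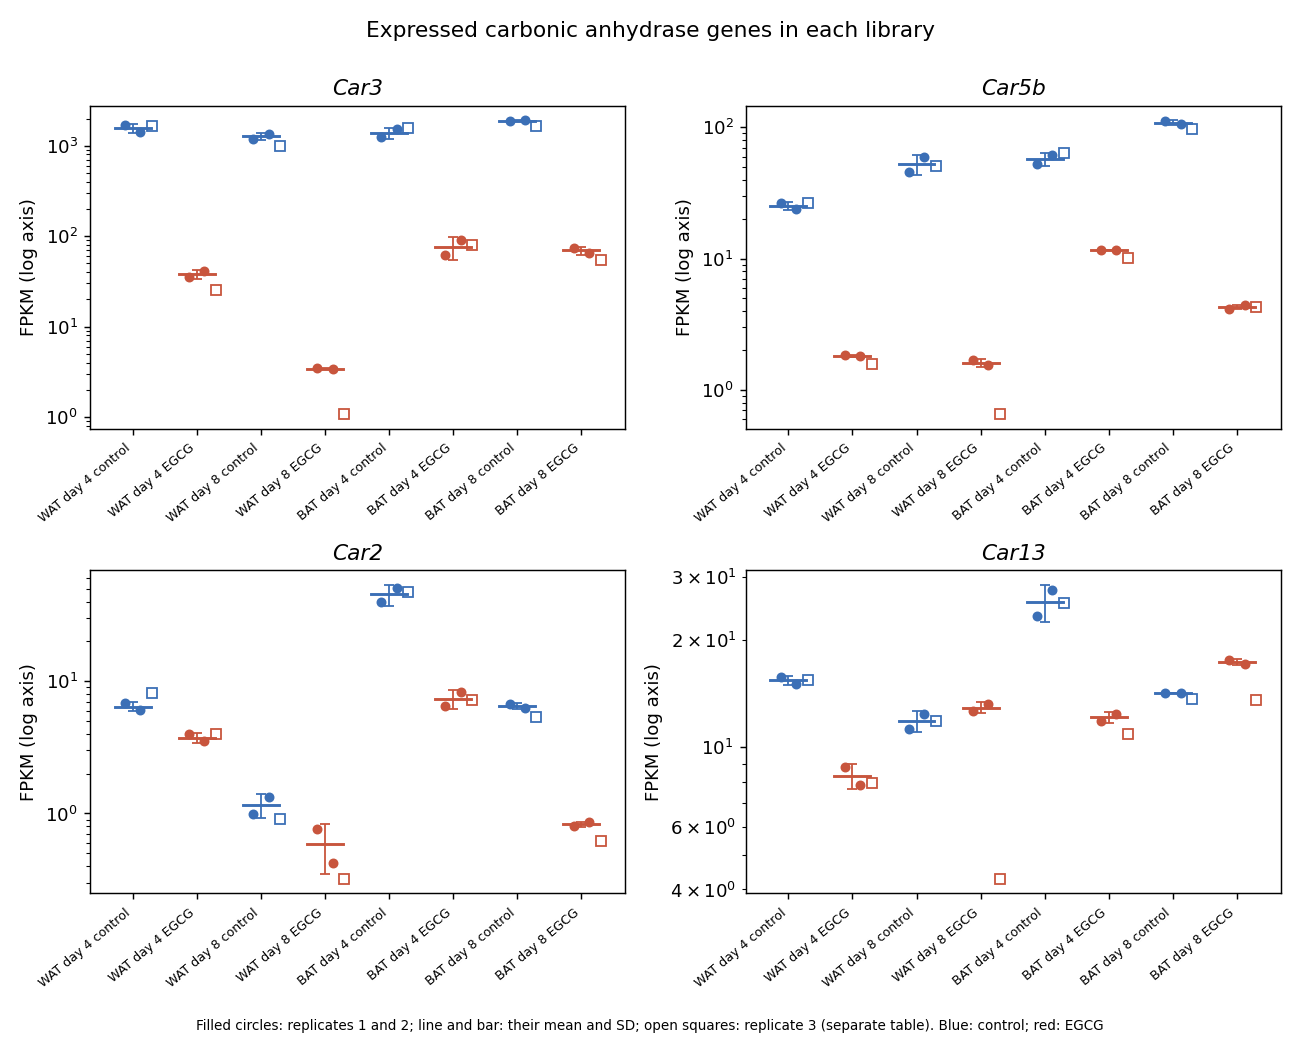
FPKM of Car3, Car5b, Car2 and Car13 on log axes in the 8 groups, with replicates 1 and 2 as filled circles, their mean and SD as line and bar, and replicate 3 from the separate table as open squares (controls blue, EGCG red). Car3 and Car5b are lower in every EGCG library than in every control library, Car2 is highest in BAT controls of day 4, and Car13 keeps to a narrow range of 4.29 to 27.5 FPKM.

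Car2, the fast cytosolic enzyme and the nearest neighbour of Car3 on the chromosome, fell with EGCG as well, and mostly in brown cells. In BAT on day 4 it was at 39.6, 50.9 and 47.2 FPKM in the controls and at 6.48, 8.25 and 7.21 FPKM with EGCG (log2 change -2.46 ± 0.144 SE, limma adjusted p = 1.04e-07). On day 8 in BAT it was at 6.74, 6.26 and 5.35 FPKM in the controls and at 0.800, 0.856 and 0.615 FPKM with EGCG (-2.04 ± 0.144, adjusted p = 1.03e-07). Control and EGCG libraries did not overlap on either day in BAT.

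In WAT, Car2 began lower and moved less. It was at 6.79, 6.06 and 8.08 FPKM in day 4 controls and at 3.95, 3.52 and 4.00 FPKM with EGCG (-0.65 ± 0.144, limma adjusted p = 0.00259). On day 8 the controls held 0.989, 1.34 and 0.911 FPKM and the EGCG libraries 0.763, 0.421 and 0.322 FPKM (-0.45 ± 0.144, adjusted p = 0.0170). This last call was lost without control replicate 2 (-0.33, adjusted p = 0.121) or without EGCG replicate 2 (-0.29, adjusted p = 0.155), and the EGCG value of replicate 3 was 0.826 FPKM without the 5 dominant genes, against 0.911 FPKM in its control. The day 8 values of WAT, and of BAT with EGCG, lay near or under the 1 FPKM added before the logarithm. The day 8 changes of Car2 are therefore understated, and that in WAT was -0.94 with voom on the recovered reads. On this scale the fall of Car2 was larger in BAT than in WAT on day 4 (difference -1.82 ± 0.203, adjusted p = 7.95e-05) and on day 8 (-1.59 ± 0.203, adjusted p = 0.000105), the opposite order to that of Car5b on day 4. Between days the difference was 0.20 in WAT (95% interval -0.24 to 0.65, adjusted p = 0.441) and 0.43 in BAT (-0.02 to 0.87, adjusted p = 0.0953). In BAT that difference passed the threshold without control replicate 1 of day 4 (0.60, adjusted p = 0.0315) or EGCG replicate 2 of day 4 (0.58, adjusted p = 0.0431), and both between-day signs turned with a pseudocount of 0.1 (-0.14 and -0.23).

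Car13, the other cytosolic enzyme of the chromosome 3 cluster, was called lower with EGCG on day 4 and not on day 8, under each scaling. On day 4 in WAT it was at 15.7, 15.0 and 15.4 FPKM in the controls and at 8.78, 7.84 and 7.94 FPKM with EGCG (log2 change -0.82 ± 0.0760 SE, limma adjusted p = 4.05e-06). In day 4 BAT cells it was at 23.3, 27.5 and 25.3 FPKM in the controls and at 11.8, 12.4 and 10.9 FPKM with EGCG (-1.005 ± 0.0760, adjusted p = 7.09e-07). The groups did not overlap in either depot.

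On day 8 the order of Car13 differed. WAT controls held 11.3, 12.4 and 11.8 FPKM and EGCG libraries 12.6, 13.2 and 4.29 FPKM, the last being 11.002 FPKM without the 5 dominant genes (0.12 ± 0.0760, limma adjusted p = 0.194, and -0.07 after median-ratio scaling and -0.04 after quantile normalization). BAT controls held 14.2, 14.2 and 13.7 FPKM and EGCG libraries 17.5, 17.1 and 13.6 FPKM (0.27 ± 0.0760, adjusted p = 0.00680, not called after median-ratio scaling, 0.09 with adjusted p = 0.303, or after quantile normalization, 0.12 with adjusted p = 0.154). The 2 EGCG libraries of the tested table were above both controls in BAT, and replicate 3 was not. The change between day 4 and day 8 in the response of Car13 was 0.94 ± 0.107 in WAT (adjusted p = 3.49e-05) and 1.28 ± 0.107 in BAT (adjusted p = 2.25e-06). In WAT it was 0.49 with adjusted p = 0.295 when replicate 3 entered the fit, and 0.93 with adjusted p = 6.78e-07 when the library with 5 dominant genes was then left out. Between depots the response of Car13 differed by -0.19 on day 4 (95% interval -0.42 to 0.05, adjusted p = 0.218) and by 0.15 on day 8 (-0.08 to 0.39, adjusted p = 0.292), and the day 4 value passed the threshold without control replicate 1 of BAT day 4 (-0.30, adjusted p = 0.0475).

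Car6, the secreted enzyme, stayed under 2 FPKM throughout. In WAT the day 4 controls held 1.03, 0.476 and 0.584 FPKM and the EGCG libraries 0.347, 0.356 and 0.544 FPKM (log2 change -0.36 ± 0.153 SE, limma adjusted p = 0.0687). That value was called under both other scalings (-0.41 and -0.45) and was -0.59 without control replicate 2. Control replicate 1 is among the WAT controls that let Car6 pass the filter. A control level above that with EGCG in WAT is therefore partly built into its being tested. On day 8 in WAT the controls held 1.40, 1.37 and 1.89 FPKM and the EGCG libraries 0.908, 1.31 and 0.291 FPKM, so that every EGCG library was under every control (-0.18 ± 0.153, adjusted p = 0.322).

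In BAT, Car6 was at 0.524, 0.383 and 0.456 FPKM in day 4 controls and at 0.0727, 0.0776 and 0.317 FPKM with EGCG, with 5 and 6 reads behind the first pair of EGCG values. It was called lower there (-0.43 ± 0.153, limma adjusted p = 0.0352), a call that none of the 4 fits without 1 library kept (adjusted p = 0.0617 to 0.161). On day 8 the BAT controls held 0.233, 0.485 and 0.433 FPKM and the EGCG libraries 0.436, 0.374 and 0.407 FPKM, which overlap (0.05 ± 0.153, adjusted p = 0.769). None of the depot and day differences of the response of Car6 was called (adjusted p = 0.0767 to 0.825), although that between days in BAT, 0.49, was called without control replicate 2 of day 8 (0.62, adjusted p = 0.0475), with a pseudocount of 0.1 (1.84, adjusted p = 0.00946) and with voom on the recovered reads (2.74, adjusted p = 0.0119).

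**Figure D2:**
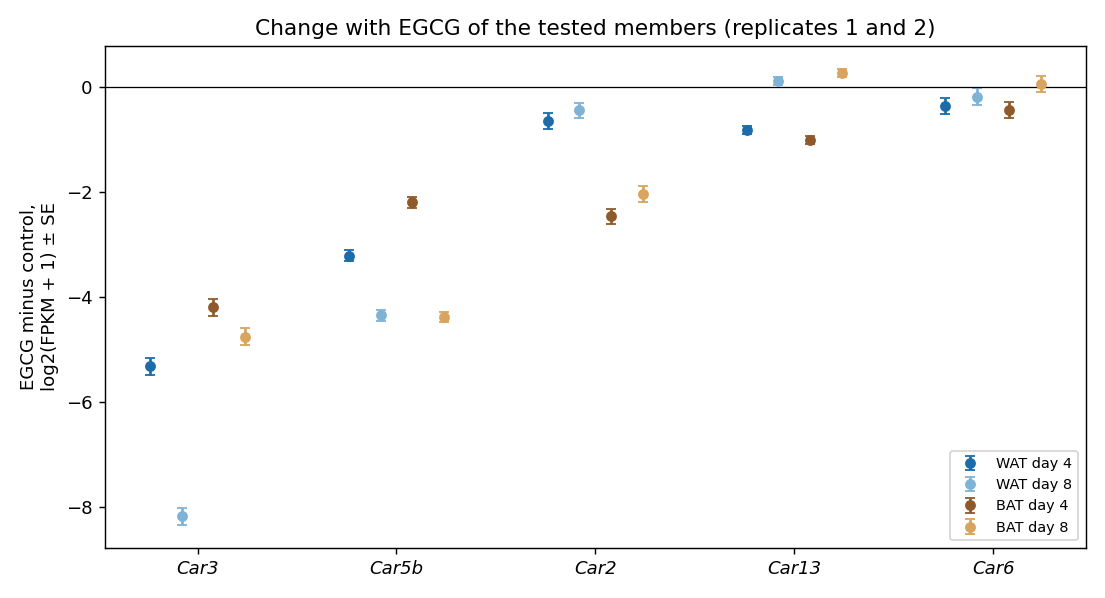
Change with EGCG of the 5 tested members, as EGCG minus control on the log2(FPKM + 1) scale with its SE, from replicates 1 and 2. Car3, which was chosen by this measure, lies between -8.17 and -4.20, Car5b between -4.38 and -2.19, Car2 is lower in BAT than in WAT, and Car13 is below 0 on day 4 only, though its day 8 value in WAT also turns below 0 under both other scalings.

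Counted over the 8 relatives, of which 4 were tested, 3 were called lower in WAT on day 4 and 2 on day 8. In BAT 4 were called lower on day 4 and 2 on day 8. Of all tested genes, 19.3% and 18.9% were called lower in WAT and 20.6% and 26.1% in BAT. Calls in either direction were 53.7% and 63.6% in WAT and 48.5% and 72.6% in BAT. The call of Car6 in BAT on day 4 was lost without the filter (-0.43, limma adjusted p = 0.0567). The one called higher was Car13 in BAT on day 8, where 46.5% of all tested genes were called higher. Car5b and Car2 were the 2 relatives called lower in all 4 comparisons. The call of Car2 in WAT on day 8 was lost with voom on the recovered reads (-0.94, adjusted p = 0.126). That change was -0.33 without control replicate 2 and -0.29 without EGCG replicate 2. The median log2 change of the 4 tested relatives was -0.73 and -0.31 in WAT and -1.60 and -0.99 in BAT on days 4 and 8. Over all tested genes the medians were 0.09, 0.17, 0.03 and 0.17. The WAT medians of the relatives include Car6, whose fall in WAT is partly built into its being tested, so they are a description only. Median-ratio scaling moved the median of all genes by -0.11 in WAT on day 4, by -0.16 in WAT on day 8 and by -0.15 in BAT on day 8.

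The mature adipocyte list moved with Car3 and Car5b. All 17 of its 17 genes were called lower with EGCG in each of the 4 comparisons, with median log2 changes of -2.29 and -4.52 in WAT and -2.17 and -4.58 in BAT on days 4 and 8. Of all tested genes, 19.3% and 18.9% in WAT and 20.6% and 26.1% in BAT were called lower. The medians over all tested genes were 0.09 and 0.17 in WAT and 0.03 and 0.17 in BAT. The summed level of the list was 1056 to 1229 FPKM in WAT on day 4, 1780 to 1883 FPKM in BAT on day 4 and 562 to 583 FPKM in BAT on day 8 in the EGCG libraries. In WAT on day 8 it was 694, 756 and 251 FPKM with EGCG, the last being 643 FPKM without the 5 dominant genes. Lep was at or under the limit in both WAT groups with EGCG. In RNA of whole cultures, fewer adipocytes and less of a transcript in each cell cannot be told apart. The part of cell makeup in the changes of the members was not tested.

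Skeletal muscle also makes much Car3. The summed level of 14 muscle markers was 20.97 to 146 FPKM over all libraries. It was higher with EGCG (139 to 146 FPKM) than in controls (84.8 to 96.1 FPKM) in WAT on day 4. In BAT on day 8 it was lower with EGCG (52.3 to 75.5 FPKM) than in controls (120.3 to 131 FPKM). Much of the latter gap was 1 gene, the myoglobin gene Mb, at 55.1, 54.5 and 49.8 FPKM in these controls and 2.78, 3.79 and 5.40 FPKM with EGCG, and without it the sums overlapped (65.8 to 81.3 and 49.1 to 70.1 FPKM). Mb was named after its values were seen. Of the 8 tested muscle genes, 6 and 3 were called higher in WAT and 1 and 0 in BAT on days 4 and 8. On day 8, 2 in WAT and 4 in BAT were called lower, so the calls in BAT were not of Mb alone. Of 9 erythroid genes none passed the filter, and their sum was at most 1.32 FPKM in 7 of the 8 groups and 0.526 to 16.3 FPKM in BAT on day 8 with EGCG, where the highest value came from Slc4a1, at 15.7 FPKM in replicate 3 and 0 in replicates 1 and 2, while the 2 beta globin genes were at or under the limit throughout. Macrophage markers rose with EGCG on day 4 (7 of 8 tested genes called higher in WAT and 6 of 8 in BAT) and fell on day 8 (8 of 8 called lower in each depot). Endothelial markers were called higher for 8 and 7 of 9 tested genes on day 4 and for 4 and 6 on day 8 in WAT and BAT, with 1 lower in each depot on day 8. Of 7 tested epithelial and mesothelial markers, 7 and 4 were called higher in WAT and 2 and 2 in BAT, and of 5 Schwann cell markers, 2 and 3 in WAT and 3 and 3 in BAT were called higher on days 4 and 8, with 2 lower in WAT on day 8 and with 1 and 2 lower in BAT. Of all tested genes, 34.4% and 44.7% in WAT and 27.9% and 46.5% in BAT were called higher on days 4 and 8. Those called lower were 19.3% and 18.9% in WAT and 20.6% and 26.1% in BAT. Near these shares lay, for example, the 4 of 9 endothelial and 3 of 8 muscle genes called higher in WAT on day 8. Some of the list counts depended on the scaling. With median-ratio scaling no muscle gene was called higher in WAT and 7 were called lower in BAT on day 8, 3 endothelial markers were called higher in BAT on day 8, and 5 and 2 epithelial and mesothelial markers in WAT and 0 in BAT on day 8 were called higher. With quantile normalization 2 muscle genes in WAT were called higher and 7 in BAT lower on day 8, and 5 macrophage markers in WAT on day 4 higher. The part of these lists in the changes of the members, Car3 included, was not tested.

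Without EGCG the members differed by day and depot. From day 4 to day 8, Car5b rose in WAT (log2 change 1.02 ± 0.103 SE, limma adjusted p = 4.67e-06) and in BAT (0.92 ± 0.103, adjusted p = 7.63e-06), whereas Car2 fell (-1.78 ± 0.144, adjusted p = 7.41e-07 in WAT, and -2.61 ± 0.144, adjusted p = 1.80e-08 in BAT). Car13 fell less (-0.35 ± 0.0760, adjusted p = 0.00164, and -0.80 ± 0.0760, adjusted p = 1.92e-06). So 1 of these 3 relatives was called higher and 2 lower in each depot, where 61.0% of all tested genes were called in WAT and 69.2% in BAT. Of the calls in BAT 41.5% were higher on day 8, and 53.3% after median-ratio scaling, which moved the median of all genes by 0.12. As a description, the difference between day 8 and day 4 controls was -0.29 in WAT and 0.46 in BAT for Car3, and 0.46 and -0.10 for Car6.

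Between the depots, Car2 showed the widest gap of the family. Its control level in BAT was above that in WAT by 2.63 ± 0.144 on day 4 (limma adjusted p = 1.36e-07) and by 1.80 ± 0.144 on day 8 (adjusted p = 1.07e-06) on the log2 scale. Car5b was higher in BAT by 1.15 ± 0.103 (adjusted p = 4.46e-06) and 1.05 ± 0.103 (adjusted p = 5.71e-06), and Car13 by 0.69 ± 0.0760 (adjusted p = 2.19e-05) and 0.24 ± 0.0760 (adjusted p = 0.0178). The day 8 call of Car13 was lost without control replicate 1 of WAT day 8 (0.18, adjusted p = 0.121) or without either BAT control of day 8 (adjusted p = 0.0643 and 0.0639). These 3 relatives were called on both days, where 55.8% and 53.6% of all tested genes were called on days 4 and 8. Without a test, the difference between BAT and WAT on days 4 and 8 was -0.17 and 0.58 for Car3 and -0.25 and -0.82 for Car6. Over all genes, median-ratio scaling moved the median of the day 4 comparison by -0.13 and quantile normalization by -0.12, and the calls higher in BAT were 74.3% of all calls, against 51.5% and 54.4% under these scalings.

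The order of the groups by mean FPKM was different for each member. For Car5b it ran from BAT controls of day 8 (109 ± 4.26, SD, n = 2) through BAT controls of day 4 (57.3 ± 6.43) and WAT controls of day 8 (52.6 ± 9.32), whose libraries overlapped, to WAT controls of day 4 (25.2 ± 1.62). The EGCG groups followed, from BAT day 4 (11.7 ± 0.0130) and BAT day 8 (4.28 ± 0.169) to WAT day 4 (1.82 ± 0.0352) and WAT day 8 (1.61 ± 0.115). For Car3 the 3 control groups after BAT day 8 (1900.0 ± 6.36) were WAT day 4 (1563 ± 179), BAT day 4 (1392 ± 199) and WAT day 8 (1277 ± 114), and the libraries of neighbours overlapped among these 3. Car2 was highest in BAT controls of day 4 (45.2 ± 7.94), and BAT EGCG of day 4 (7.37 ± 1.25), BAT controls of day 8 (6.50 ± 0.339) and WAT controls of day 4 (6.42 ± 0.513) overlapped in turn.

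The low members were read from the same fit without the filter, over 26587 genes. Car8, the member without catalytic activity, was higher with EGCG where it was called. In BAT on day 8 it was at 0.0726, 0.0395 and 0.0735 FPKM in the controls and at 0.766, 1.24 and 0.843 FPKM with EGCG, that is, 13, 6 and 5 reads against 138, 253 and 56 (log2 change 0.91 ± 0.0956 SE, limma adjusted p = 2.04e-05, 42.3% of genes called). In BAT on day 4 it was at 0.0840, 0.0982 and 0.0155 FPKM in the controls and at 0.456, 0.538 and 0.487 FPKM with EGCG (0.46 ± 0.0956, adjusted p = 0.00540, 25.4% called). The groups did not overlap on either day in BAT.

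In WAT on day 8, the controls of Car8 had 0, 0 and 1 read and the EGCG libraries 58, 25 and 26 reads, or 0.290, 0.163 and 0.162 FPKM (0.29 ± 0.0956, limma adjusted p = 0.0371, 35.4% called). On day 4 in WAT the change was 0.09 (adjusted p = 0.601, 29.1% called). The rise was larger in BAT than in WAT on day 8 (0.62 ± 0.135, adjusted p = 0.00924, 20.1% called) and was not called as different on day 4 (0.37 ± 0.135, adjusted p = 0.117, 13.3% called). With 1 FPKM added before the logarithm, the changes of such low genes are understated. Car8 overlaps the pseudogene Gm11799 on the same strand, so its reads cannot be assigned with certainty.

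Car12, a transmembrane enzyme with an outer catalytic domain, was higher with EGCG in BAT on day 8, at 0.0810, 0.0887 and 0.198 FPKM in the controls and 0.787, 0.621 and 0.561 FPKM with EGCG (0.65 ± 0.0797, limma adjusted p = 6.62e-05). In the other comparisons its changes of 0.21, 0.18 and 0.17 were not called (adjusted p = 0.0867, 0.118 and 0.178 for WAT on days 4 and 8 and BAT on day 4). On day 8 the change in BAT was larger than in WAT (0.47 ± 0.113, adjusted p = 0.0151). All 3 EGCG libraries of BAT day 8 were above the 3 controls. The same held on day 4 in WAT, with 0.641, 0.416 and 0.631 FPKM against 0.330, 0.314 and 0.263 FPKM. It also held on day 4 in BAT, with 0.466, 0.382 and 0.386 FPKM against 0.348, 0.191 and 0.192 FPKM. The EGCG libraries of WAT day 4 and BAT day 8 overlapped.

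Car14, the other transmembrane member, was higher in BAT than in WAT controls on day 4 (0.320, 0.429 and 0.174 against 0.0684, 0.109 and 0 FPKM, 0.34 ± 0.0781, limma adjusted p = 0.00866, 29.6% called) and on day 8 (0.478, 0.549 and 0.0331 against 0.106, 0.233 and 0.106 FPKM, 0.37 ± 0.0781, adjusted p = 0.00461, 29.0% called). In replicate 3 of day 8 the order was the reverse. None of its 4 EGCG changes was called, the lowest adjusted p being 0.0552, and the change in BAT was below that in WAT on day 4 (-0.41 ± 0.1105, adjusted p = 0.0379). Car14 overlaps Aph1a on the opposite strand, and without stated strand-aware counting their reads cannot be told apart. Car4, anchored to the membrane, never passed 0.432 FPKM or 13 reads and had 0 reads in all 3 EGCG libraries of BAT on day 8, and none of its EGCG changes was called (lowest adjusted p = 0.101).

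**Figure D3:**
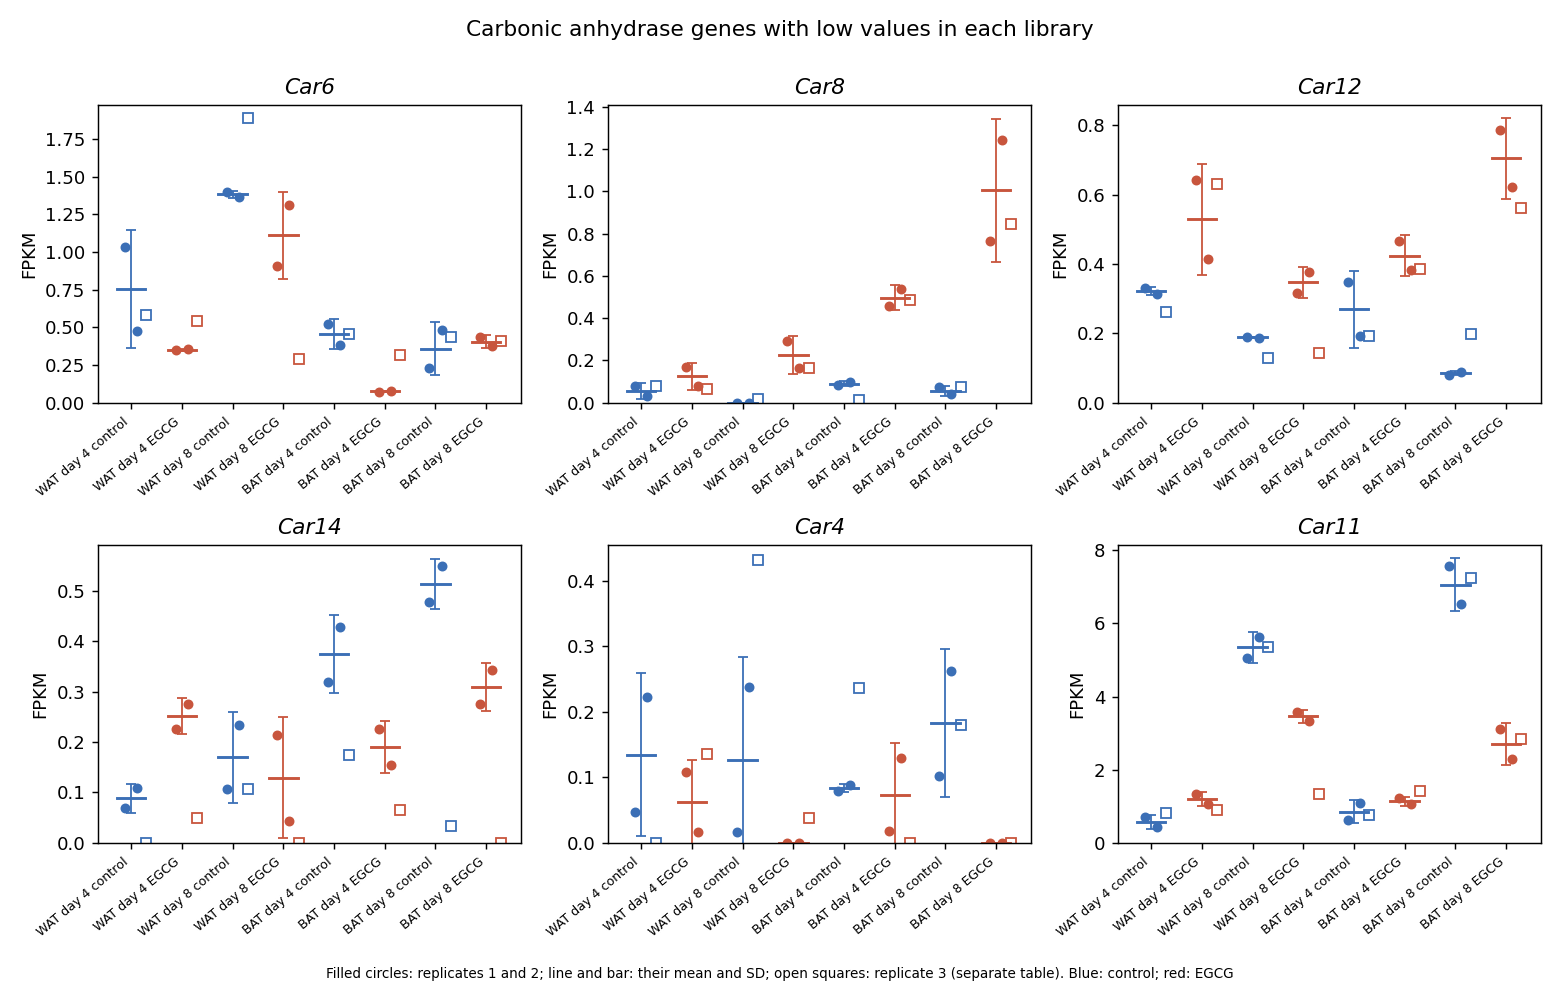
FPKM on linear axes of Car6, Car8, Car12, Car14, Car4 and the non-member Car11 in the 8 groups, with symbols as in the plot of the expressed members. Car8 is highest in the EGCG libraries of BAT day 8. Car12 has its highest mean there, but these libraries overlap those of WAT day 4 with EGCG. Car4 stays at or under 0.432 FPKM, and Car11 is higher on day 8 than on day 4 and lower with EGCG on day 8.

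Of the 7 other carbonic anhydrase genes in the tables, Car9 and Car11 were tested. Car11, which like Car8 lacks the activity, rose from day 4 to day 8 in the controls of WAT (2.02 ± 0.145, limma adjusted p = 3.03e-07) and BAT (2.13 ± 0.145, adjusted p = 1.07e-07). With EGCG it was higher in WAT on day 4 (0.49 ± 0.145, adjusted p = 0.0144), lower on day 8 in WAT (-0.51 ± 0.145, adjusted p = 0.00893) and in BAT (-1.13 ± 0.145, adjusted p = 2.08e-05), and at 0.21 in BAT on day 4 (adjusted p = 0.250). Car9, a membrane enzyme known as a hypoxia target, was higher with EGCG in WAT on day 4 (0.56 ± 0.173, adjusted p = 0.0167), and its other EGCG changes were not called (adjusted p = 0.163 to 0.364). The 5 libraries that let Car9 pass the filter were all of day 8. In WAT on day 4 all its values were under 1 FPKM, at 0.173, 0.231 and 0.181 FPKM in the controls and 0.852, 0.700 and 0.653 FPKM with EGCG. With quantile normalization 1 of the 2 genes was called in WAT on day 4. Car1, Car5a, Car7, Car10 and Car15 were under the filter.

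The composition of the family is given as a description. Car3 makes up most of each control sum, so its values, which chose the family, largely set the sums and shares. A larger share of Car13 or Car11 does not by itself show a higher level. Car13 had a mean of 11.8 FPKM in WAT controls of day 8 and 12.9 FPKM with EGCG (replicates 1 and 2). Car3 made up 91.3% to 97.0% of the summed FPKM of the 16 carbonic anhydrase genes in every control library. With EGCG its share was 59.7% to 71.5% in WAT on day 4, 64.4% to 71.7% in BAT on day 4 and 68.9% to 71.3% in BAT on day 8. In WAT on day 8 it was 12.5% to 13.8%, and Car13 was the most abundant member with 49.5% to 51.9%, followed by Car11 or Car3, with 13.0% to 15.4% for Car11. The family sum was 1066 to 2041 FPKM in the controls, 42.3 to 57.7 FPKM in WAT on day 4, 95.1 to 127 FPKM in BAT on day 4 and 78.0 to 105 FPKM in BAT on day 8 with EGCG. In WAT on day 8 it was 25.2, 25.5 and 8.66 FPKM with EGCG, the last being 22.2 FPKM without the 5 dominant genes. The shares use values of 1 library and do not depend on how libraries are scaled to each other.

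**Figure D4:**
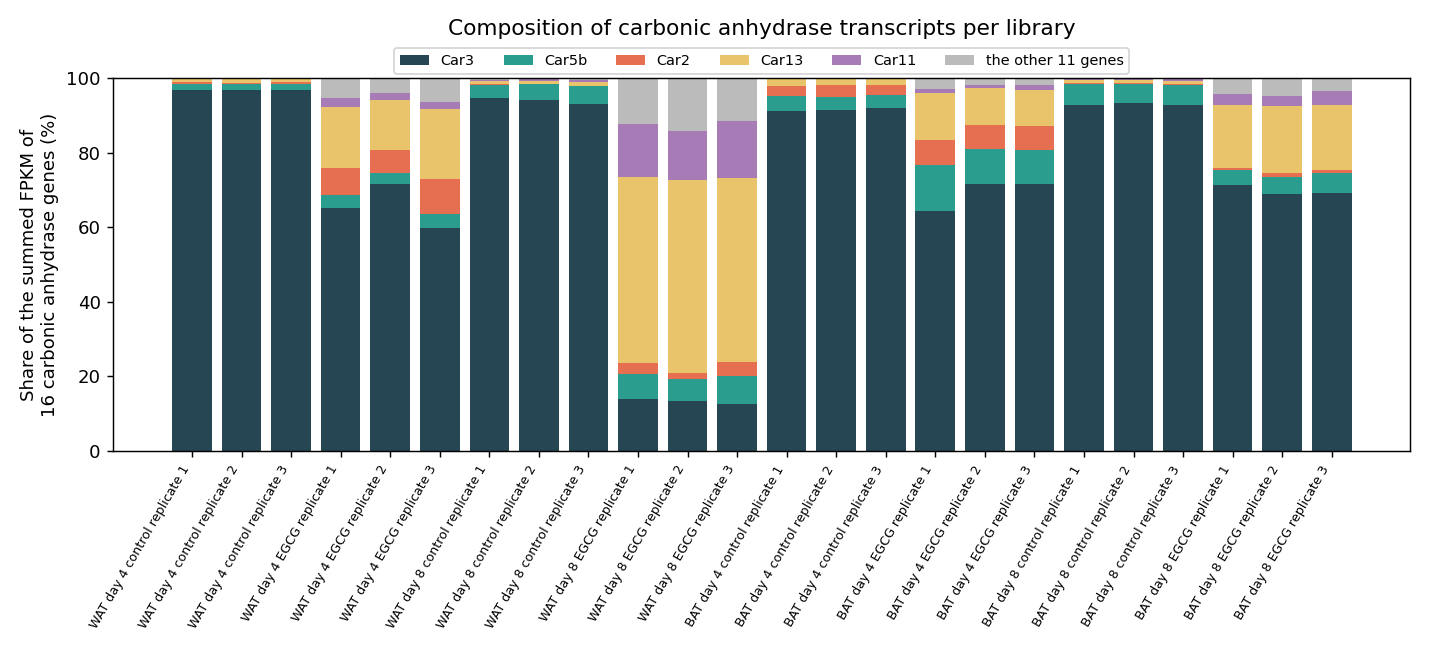
Share (%) of each carbonic anhydrase gene in the summed FPKM of all 16 such genes, 1 bar per library, with the 5 main genes in colour and the other 11 in grey. Car3 fills over 91.3% of each control bar, and Car13 fills the widest part of the WAT day 8 EGCG bars. The shares follow largely from the values of Car3, which chose the family.

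Genes that use or move bicarbonate were read beside the family. Of 9 genes of the carboxylases that use bicarbonate and of their biotin ligase Hlcs, 8 were tested, and 7 were called lower with EGCG in WAT on day 4, WAT on day 8 and BAT on day 4 and 8 in BAT on day 8, with median log2 changes of -0.85, -1.57, -1.05 and -3.01. None was called higher, also under both other scalings. Of all tested genes, 19.3%, 18.9%, 20.6% and 26.1% were called lower in the same comparisons. Pcx, the mitochondrial pyruvate carboxylase, fell with log2 changes of -1.30 and -4.21 in WAT and -1.84 and -4.27 in BAT on days 4 and 8 (limma adjusted p = 2.17e-06, 9.09e-11, 1.39e-07 and 3.63e-11). In BAT on day 8 it went from 377, 365 and 374 FPKM in the controls to 17.8, 18.7 and 19.6 FPKM with EGCG. Acacb, the acetyl-CoA carboxylase at the mitochondrial membrane, went from 46.2, 39.96 and 35.996 FPKM to 0.617, 0.540 and 0.547 FPKM in the same cells (-4.80 ± 0.0993, adjusted p = 6.70e-12).

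The transporters of bicarbonate and acid were divided. Of 17 genes 10 were tested, and 4, 5, 4 and 4 were called higher and 1, 1, 4 and 4 lower in WAT on days 4 and 8 and BAT on days 4 and 8, with medians of 0.14, 0.24, 0.08 and -0.09. Of all tested genes, 34.4%, 44.7%, 27.9% and 46.5% were called higher and 19.3%, 18.9%, 20.6% and 26.1% lower in the same comparisons. The split of the transporters depended on the scaling. Median-ratio scaling gave 3, 3, 4 and 3 higher and 3, 3, 4 and 6 lower, and quantile normalization gave 4, 6, 4 and 4 higher and 3, 2, 4 and 5 lower. Slc16a3, a lactate exporter, was at 5.06, 5.07 and 5.69 FPKM in day 4 WAT controls and at 51.2, 47.2 and 59.8 FPKM with EGCG (3.05 ± 0.123, limma adjusted p = 5.34e-09). Slc4a2, a chloride and bicarbonate exchanger, was at 17.1, 16.7 and 20.1 FPKM in day 8 BAT controls and at 67.7, 69.4 and 79.4 FPKM with EGCG (1.96 ± 0.0523, adjusted p = 4.12e-11). Slc4a4, a sodium and bicarbonate cotransporter, was at 20.7, 19.2 and 14.9 FPKM in the same controls and at 3.94, 4.08 and 3.44 FPKM with EGCG (-2.06 ± 0.103, adjusted p = 5.35e-09).

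The genes whose level across the 16 libraries of replicates 1 and 2 was most like that of Car3 were sought among 8704 genes with a mean of at least 5 FPKM, as a description. They were Plin1, which coats the lipid droplet (Pearson r = 0.962), Agt, the angiotensinogen gene (0.959), Aldh1a7 (0.956), Cdo1, the cysteine dioxygenase gene (0.955), and mt-Nd2 (0.955). Their r in the 8 libraries of replicate 3 was 0.967 to 0.977. The gene most like Car5b was Agpat2, an enzyme of triglyceride synthesis (0.998), with 0.995 in replicate 3. Plin1 and Agpat2 are on the mature adipocyte list. The most like to Car2 was Timm9 (0.970, and 0.836 in replicate 3), to Car13 Gm10039 (0.951, and 0.372) and to Car6 Arsi (0.913, and 0.725). Among the members, r was 0.927 between Car3 and Car5b, 0.542 between Car3 and its neighbour Car2, and 0.415 between Car3 and Car13. The libraries share treatments and depots, so these values describe the 8 groups more than 16 separate points.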

How the data were processed

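RNA-seq libraries (24, in 8 groups of 3) were grouped by their titles. The authors deposited FPKM values in 2 tables made separately, with a gene length column, and the submitters' processing notes name FastQC 0.11.9, HISAT2 2.2.0, HTSeq 0.11 and mm9. The annotation and the strand setting are not given in the sources used here. All 37310 identifiers matched GENCODE vM1, with the length of the longest transcript, and 100% of the values gave whole reads at a tolerance of 0.01.

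Genes with at least 1 FPKM in at least 2 of the 16 libraries of replicates 1 and 2 (37.8% of genes) were fitted as log2(FPKM + 1) with limma 3.58.1 in R 4.3.3, with 1 mean per group, a trend in the prior variance and Benjamini-Hochberg adjustment within each of 12 contrasts (8 residual degrees of freedom, calls at 0.05). The fit was tested on simulated data. Replicate 3 gives values only.

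All 9 members are named, and from the transporter and carboxylase lists called genes with the 2 highest and the 2 lowest changes and at least 5 FPKM could be named. The members and all gene and marker lists were chosen with earlier results of these data known. Alternatives were a pseudocount of 0.1, no filter, median-ratio scaling, quantile normalization, both tables with table as a term (also without the library with 5 dominant genes), voom on the recovered reads, a replicate block and leaving out each library. Rescaling that library without its 5 dominant genes was added after the data were seen. RefSeq promoter windows of GRCm38.p6 were not joined to mm9 coordinates.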

Additional observations from a re-analysis of the deposited data

Results flagged for a closer look

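Responses of 3 relatives of Car3 to EGCG differed between the depots or the days, by the limma test of the difference of the log2 changes. That of Car2 was lower in BAT than in WAT by a difference of -1.82 ± 0.203 SE on day 4 (adjusted p = 7.95e-05) and of -1.59 ± 0.203 on day 8 (adjusted p = 0.000105). For Car5b the difference BAT minus WAT on day 4 was 1.02 ± 0.145 (adjusted p = 0.000409), so the depot with the larger fall was WAT. The response of Car5b was lower on day 8 than on day 4 by a difference of -1.13 ± 0.145 in WAT (adjusted p = 7.74e-05) and of -2.19 ± 0.145 in BAT (adjusted p = 3.80e-07). For Car13 the difference between days had the other sign, 0.94 ± 0.107 in WAT (adjusted p = 3.49e-05) and 1.28 ± 0.107 in BAT (adjusted p = 2.25e-06). Of the 4 tested relatives, 2 and 1 were called for the depot difference on days 4 and 8, where 28.1% and 39.2% of all tested genes were called. For the day difference 2 were called in each depot, near the share of all tested genes, 49.4% in WAT and 55.4% in BAT. The tests of these differences use 2 libraries per group, and the day differences share no control libraries between depots. No cause was tested.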

How the results depend on the processing

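Each call and value of the 5 tested members was recomputed under the alternatives. No called change of a tested member reversed under any of them. With voom, 1 in place of 2 relatives was called in WAT on day 8. Without the filter 5 in place of 3 were called for EGCG in BAT on day 8, 3 in place of 1 for the depot difference on day 8 and 4 in place of 2 for the day difference in BAT, since low members then enter. With both tables, 1 in place of 2 was called for the day difference in WAT, and calls over all genes came to 627 to 6723 per contrast in place of 3959 to 10231. With the library with dominant genes left out of that fit, these were 2 relatives and 5167 to 10612 calls. Leaving out 1 library gave Car2 a change with EGCG in WAT on day 8 of -0.60 to -0.29. It gave Car13 a difference between BAT and WAT controls on day 8 of 0.18 to 0.31. Signs that turned were all of changes not called. Car13 with EGCG in WAT on day 8 was -0.068 with median-ratio scaling, -0.043 with quantile normalization and -0.35 with both tables. The depot difference of Car5b on day 8 was 0.30 with a pseudocount of 0.1, 0.083 with quantile normalization, 0.23 with both tables, 0.030 with both tables without the library with dominant genes and 0.34 with voom, and -0.21 to 0.15 on leaving out 1 library. The day difference of Car2 was -0.14 and -0.15 in WAT and -0.23 and -0.36 in BAT with the pseudocount of 0.1 and with voom. That of Car6 in WAT was -0.26 with both tables and -0.055 to 0.41 on leaving out 1 library. Leaving out 1 library also gave Car6 -0.080 to 0.19 with EGCG in BAT on day 8, -0.24 to 0.033 for day 8 against day 4 in BAT controls and -0.31 to 0.16 for the depot difference on day 4. The cause was not tested. Over all alternatives and members, 32 single values lost a call and 13 gained one. These totals include the control comparisons of Car3 and Car6, which are given above without a test. Depth limits Car4, Car8, Car12 and Car14, where few reads stand behind a value.

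Replicate numbers are shared by the groups, but the labels do not say what they mark, and the correlations of the deviations between groups were -0.079 to 0.081. With a replicate block the calls over all genes were 0.966 to 0.996 times those without it, and the counts of members called were 3, 2, 4 and 3 for EGCG in WAT on day 4, WAT on day 8, BAT on day 4 and BAT on day 8, as without it. The block changed no call of a tested member.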
